A study of Mus musculus with 17 samples.

Results

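Calcrl, the gene for the calcitonin receptor-like receptor, was examined with 5 genes that act with it: Ramp1, Ramp2 and Ramp3, which encode its accessory proteins, Calcr, which encodes the related calcitonin receptor, and Adm, which encodes the ligand adrenomedullin. These 6 genes were all found by symbol among the 22253 genes of the count table. Calcrl was chosen for a level that was lower in GFP+-RPE than in the central control pools, so that comparison is described here without a test, and no p-value is given for Calcrl in any comparison. The other 5 genes were added because of their role with Calcrl.

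The samples were 17 RNA-seq libraries, each made with a SMART-Seq kit from a pool of retinal pigment epithelium (RPE) cells picked by hand from mice at 2 months. The labels give 10 to 15 cells a pool, and the study's methods give a different, lower range. Every mouse, including the source of the control pools, was heterozygous for the Serpine3 GFP allele, a reporter that marks cells using the Serpine3 gene. There were 6 libraries of GFP+ cells from the peripheral RPE (GFP+-RPE), 5 of peripheral cells without GFP (peripheral GFP–-RPE) and 6 of central cells without GFP (central GFP–-RPE). The libraries came from 7 numbered mice, called mouse 1 to mouse 7. Mice 1, 2, 4, 5 and 7 gave a library of each group, mouse 3 only GFP+-RPE and mouse 6 only central GFP–-RPE, and mouse 1 carries 2 animal numbers in the labels. The cells were picked by eye under a fluorescence microscope, and a pool of so few cells limits what a low count can show.

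The calcitonin receptor-like receptor is a class B G protein-coupled receptor that reaches the cell surface with a receptor activity-modifying protein (RAMP). With RAMP1 it forms the receptor for calcitonin gene-related peptide, and with RAMP2 or RAMP3 it forms receptors for adrenomedullin, which signal mainly through Gs and cyclic AMP. The same RAMPs turn the calcitonin receptor into receptors for amylin. The complex with RAMP2 is best known from blood and lymphatic endothelium, and the RPE lies against the capillaries of the choroid.

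Total counts ranged from 9896118 to 22467079 per library. Serpine3, the gene behind the reporter, had 107 to 576 counts in GFP+-RPE, 0 to 5 in peripheral GFP–-RPE and 0 in every central GFP–-RPE library. Of 18 RPE genes, 16 were above 3 counts in at least 1 library of each group, and Rpe65, the visual cycle isomerase, had at least 39568 counts in every library. Best1 and Crhbp, which are also on that list, never exceeded 3 counts. The central library of mouse 5 stood apart from the rest. Mitochondrial genes took 47.3% of its counts, and 5392 genes reached 10 counts there, against 6430 to 10543 in the other 16 libraries. The main Calcrl and Ramp2 values are therefore given with and without it.

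Calcrl was detected in all 17 libraries, always at a low level, and was lowest in GFP+-RPE. In GFP+-RPE its counts were 9, 6, 26, 9, 16 and 7 in mice 1, 2, 3, 4, 5 and 7. In peripheral GFP–-RPE they were 32, 48, 33, 68 and 32 in mice 1, 2, 4, 5 and 7. In central GFP–-RPE they were 51, 21, 52, 199, 36 and 97 in mice 1, 2, 4, 5, 6 and 7. No GFP+-RPE library reached the lowest count of the peripheral controls, whereas mouse 2 had a central count of only 21, below the highest count of GFP+-RPE.

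Scaled to library size (CPM, with TMM normalization), Calcrl stood at 0.349, 0.285, 1.16, 0.679, 1.13 and 0.334 in the GFP+-RPE libraries, in the same order of mice (mean 0.655 ± 0.402, SD, n = 6). Peripheral GFP–-RPE had 1.78, 2.49, 1.59, 5.40 and 3.16 CPM (2.88 ± 1.54, SD, n = 5). Central GFP–-RPE had 4.29, 1.15, 5.19, 36.8, 2.70 and 10.8 CPM (10.1 ± 13.5, SD, n = 6). The central group was by far the most spread, and 43.6% of its 456 Calcrl counts came from the library of mouse 5. Since the counts are small, counting error alone is wide: the 26 counts of mouse 3 in GFP+-RPE gave an exact Poisson 95% interval of 0.755 to 1.69 CPM, and the 21 counts of mouse 2 in the center gave 0.715 to 1.76 CPM. Such intervals cover counting error only, because reads copied by PCR count more than once when no molecular identifiers are used.

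The mean Calcrl level in central GFP–-RPE was 15.5-fold that in GFP+-RPE. The values overlapped, because mouse 3 in GFP+-RPE (1.16 CPM) matched mouse 2 in the center (1.15 CPM). Without the central library of mouse 5 the fold was 7.36, and on library totals in place of TMM it was 8.86 with that library and 5.32 without it. The animal numbers fall into 2 runs, and the fold was 4.57 within mice 1 to 3 and 19.4 within mice 4 to 7, the latter being 8.71 without the central library of mouse 5. The edgeR log2 fold change, GFP+-RPE minus central GFP–-RPE, was −4.14, and −2.93 without that library. Across the same comparison 4 of 9286 genes tested were called (0.0431%, with the limits for a call set at an adjusted p of 0.01 and a log2 fold change of 1 in either direction), and 0 of them were lower in GFP+-RPE. With the mouse as a replicate block 56 genes were called.

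Against peripheral GFP–-RPE, the controls from the same zone, Calcrl was 4.41-fold lower on average in GFP+-RPE, with an edgeR log2 fold change of −2.13. The highest GFP+-RPE value, 1.16 CPM, lay below the lowest peripheral one, 1.59 CPM. Such a gap with GFP+-RPE lower was found for 67 of 10102 genes tested (0.663%). The fold was 3.58 within mice 1 to 3 and 4.75 within mice 4 to 7. On library totals the fold was 3.82, and the groups were again apart (at most 1.34 against at least 1.68 CPM). In pools of cells, fewer cells that use a gene and less RNA of it in each cell cannot be told apart.

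Within mice, Calcrl was lower in GFP+-RPE than in peripheral GFP–-RPE in 5 of 5 mice, by 2.34-fold to 9.48-fold. It was lower than in central GFP–-RPE in 5 of 5 mice as well, by 4.05-fold to 32.7-fold. Both comparisons share the GFP+-RPE libraries. Between the controls, the center was higher than the periphery in 4 of 5 mice and lower in mouse 2. The mean of the center was 3.52-fold that of the periphery, and 1.67-fold without the central library of mouse 5, and the ranges overlapped (edgeR log2 fold change, periphery minus center, −1.95, standard error 1.39, and −0.74, standard error 1.17, without that library).

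**Figure D1:**
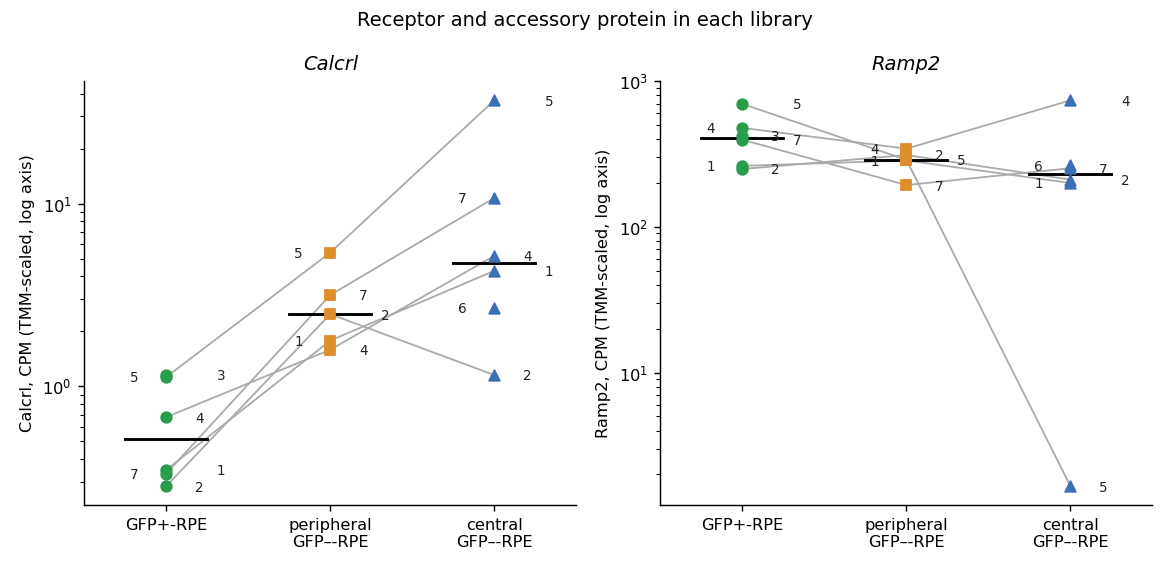
Calcrl (left) and Ramp2 (right) in each library, in TMM-scaled CPM on a log axis, by group. Points are libraries with the number of the mouse beside them, grey lines join libraries of one mouse and black bars are group medians; all Calcrl points of GFP+-RPE lie below those of peripheral GFP–-RPE, while Ramp2 overlaps between the groups and drops to 1.66 CPM in the central library of mouse 5.

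The Calcrl level moved with measures of the library as a whole. Mitochondrial genes took 0.710% to 17.2% of the counts in GFP+-RPE, 12.5% to 30.4% in peripheral GFP–-RPE and 13.7% to 47.3% in central GFP–-RPE. Over the 17 libraries, log2(CPM + 1) of Calcrl and the mitochondrial share had a Pearson r of 0.965 (Spearman rho 0.934), and r was 0.942 without the 2 libraries farthest from the median share. Within groups of 6 libraries r was 0.729 in GFP+-RPE and 0.971 in central GFP–-RPE. These are descriptions, since libraries of one mouse are not independent.

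Calcrl was also higher in libraries with fewer genes and fewer counts. With the number of genes at 10 counts or more its Pearson r was −0.82 (−0.69 without the central library of mouse 5), and with the total counts it was −0.61 (−0.53 without it). Without the 2 libraries farthest from the median of each measure, the values were −0.54 and −0.58. Within the 6 libraries of central GFP–-RPE they were −0.87 and −0.77, and within the 6 of GFP+-RPE only −0.34 and −0.35.

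Another measure was the summed CPM of the 1150 olfactory receptor genes in the table, whose products are receptors of the nose. It was 661 to 4448 in GFP+-RPE, 2822 to 9408 in peripheral GFP–-RPE and 2711 to 38750 in central GFP–-RPE, highest in the library of mouse 5. Olfr157, Olfr907, Olfr1385 and Olfr57, named here after their values were seen, made up 79.9% to 94.2% of that sum. Calcrl and the summed CPM had a Pearson r of 0.929 (Spearman rho 0.917) over the 17 libraries on the log2 scale, and 0.910 without the 2 libraries farthest from the median sum. With those 4 genes left out of the sum, r was 0.914. Taken as a percent of the olfactory receptor counts, Calcrl was at 0.0101% to 0.0445% in GFP+-RPE, 0.0449% to 0.0651% in peripheral GFP–-RPE and 0.0426% to 0.0949% in central GFP–-RPE. On that scale the mean of GFP+-RPE was lower by 1.72-fold against the periphery and 1.97-fold against the center. The highest GFP+-RPE value, 0.0445%, lay above the lowest central one, 0.0426%, and close to the lowest peripheral one, 0.0449%. Calcrl was chosen for its low level in GFP+-RPE, so these ratios are not a separate result. The part of these library measures in the Calcrl difference was not tested.

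**Figure D2:**
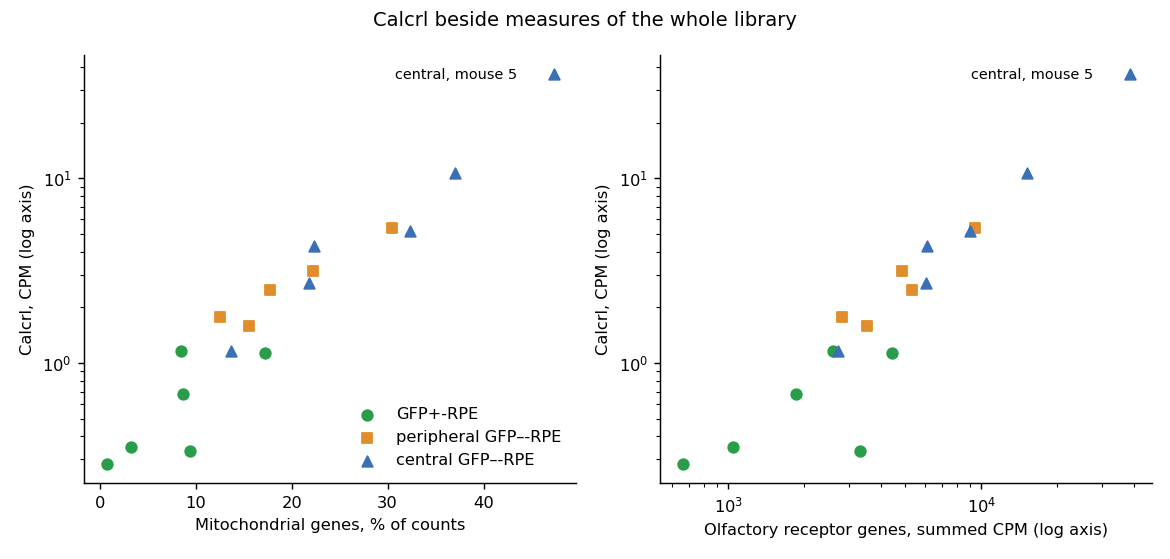
Calcrl CPM on a log axis against the percent of counts in mitochondrial genes (left) and the summed CPM of olfactory receptor genes on a log axis (right), 1 point per library. The central library of mouse 5 lies at the upper end of both plots with 36.8 CPM of Calcrl, and the GFP+-RPE libraries lie toward the lower left.

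The genes whose pattern was most like Calcrl over the 17 libraries were D630003M21Rik, Grap2, Trim14, Olfr1109, Usp17la, Frat1, Peg12, Bean1, Sox11 and Pde11a. They were the 10 highest of 11525 genes with at least 10 counts in at least 3 libraries, by Pearson correlation of log2(CPM + 1), with r from 0.963 to 0.986. In GFP+-RPE they had at most 102 counts in any library (Sox11), and in central GFP–-RPE up to 458 (Peg12). D630003M21Rik, the closest, had 10 to 24 counts in GFP+-RPE, 28 to 51 in peripheral GFP–-RPE and 32 to 205 in central GFP–-RPE. Grap2, an adaptor of T-cell signaling, had 3 to 16, 14 to 34 and 15 to 52 counts in the same order. Sox11, a transcription factor of neural development, had medians of 3.53, 6.52 and 13.6 CPM, and reached 68.8 CPM in central GFP–-RPE. Olfactory receptor genes made up 17 of the 100 genes most like Calcrl, whereas they were 76 of all those compared (0.659%). Ramp2, the partner of Calcrl, had an r of −0.70 with it, and −0.14 without the central library of mouse 5.

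Ramp2 was the only RAMP gene with a sizeable signal and stood far above the receptor. In GFP+-RPE it had 262, 249, 422, 477, 698 and 396 CPM in mice 1, 2, 3, 4, 5 and 7 (417 ± 164, SD, n = 6). In peripheral GFP–-RPE it had 285, 311, 344, 288 and 193 CPM in mice 1, 2, 4, 5 and 7 (284 ± 56.0, SD, n = 5). In central GFP–-RPE it had 200, 211, 738, 1.66, 264 and 252 CPM in mice 1, 2, 4, 5, 6 and 7 (278 ± 245, SD, n = 6). Over all libraries the groups overlapped in every comparison, though not within every run of animal numbers. The central group held both the highest library, mouse 4, and the lowest, mouse 5, where Ramp2 fell to 9 counts while every other library had at least 1956.

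Between GFP+-RPE and peripheral GFP–-RPE, Ramp2 differed by 0.57 on the log2 scale (edgeR, standard error 0.26), with GFP+-RPE higher. It was not called (adjusted p = 0.871 by edgeR's quasi-likelihood test, unadjusted p = 0.0425), and a two-sided exact permutation test of mean log2(CPM + 1) gave p = 0.113. Neither of these 2 tests used the pairing of libraries by mouse. With the mouse as a replicate block the edgeR log2 fold change was 0.50 (standard error 0.26, unadjusted p = 0.0826 by the quasi-likelihood test). GFP+-RPE was higher in 3 of 5 mice. The difference of mean log2(CPM + 1) was 0.02 within mice 1 to 3 (exact permutation p = 1) and 0.93 within mice 4 to 7 (exact permutation p = 0.10, the smallest that 3 against 3 libraries can give). Between the controls Ramp2 differed by 0.01 (edgeR log2 fold change, standard error 0.69, adjusted p = 1.00), by 0.60 with the mouse as a replicate block (standard error 0.90), and by −0.21 without the central library of mouse 5, with the center then higher. Their difference of mean log2(CPM + 1) was 1.07 with the periphery higher (exact permutation p = 0.580). Against the center, the log2 ratio of mean Ramp2 CPM was 0.59 with GFP+-RPE higher, 0.33 without that library, 1.17 without the central library of mouse 4 and 0.12 without mouse 5 in both groups. Of the members other than Calcrl, Ramp2 alone passed the filter on low counts, and it was not called in either comparison by edgeR or DESeq2, where 0.0396% of the genes were called by edgeR in GFP+-RPE against the periphery (4 genes, and 0 once libraries were blocked by mouse) and 0% between the controls.

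The exons of Ramp2 overlap those of Vps25, an ESCRT subunit, on the same strand in the GENCODE annotation of GRCm38. How reads were shared between them is not given in the sources used here. Vps25 had 34.5 to 179 CPM over all libraries, and 133 CPM (721 counts) in the central library of mouse 5, where Ramp2 was almost missing. The low Ramp2 value of that library was thus not matched by its neighbor.

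Ramp1, Ramp3, Calcr and Adm were at or near 0. Ramp1 had 7 counts in the central library of mouse 1 and 1 count each in 2 libraries of GFP+-RPE, those of mice 3 and 5, and 0 in the other 14 libraries. Ramp3 had 0 counts in all 17 libraries. Calcr had 7 counts in the same central library of mouse 1, 2 in that of mouse 6 and 1 each in the peripheral libraries of mice 1, 2 and 7, with 0 in all 6 libraries of GFP+-RPE. Adm had 1 count in all, in the GFP+-RPE library of mouse 3.

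A library read at 0 may still hold up to 3 counts of a gene, a floor of 0.116 to 0.554 CPM depending on the library. This floor covers counting error only, and not RNA lost before amplification. Ramp1 and Calcr exceeded that floor in 1 of 17 libraries, and Ramp3 and Adm in 0. Differences between the groups were therefore not detectable from these counts for these 4 genes. Two-sided exact permutation tests gave p = 0.121 for Calcr, 0.545 for Ramp1 and 1 for Adm between GFP+-RPE and peripheral GFP–-RPE, and p = 0.784 for Calcr and 1 for Ramp1 between the controls. Calcr had counts in 5 of 17 libraries, Ramp1 in 3 and Adm in 1, so most values were tied at 0. These ties kept every p between GFP+-RPE and peripheral GFP–-RPE, and that of Ramp1 between the controls, from falling under 0.05. These tests therefore could not decide, and no conclusion is drawn from them. Over all libraries of 2 groups, 7 such tests were run over the members, beside the repeats of the Ramp2 test within runs and under other settings. For values without ties, as those of Ramp2, the smallest p that 6 against 5 libraries can give is 0.0043.

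Per kilobase of transcript, the order of the mean levels over all libraries was Ramp2 (279 CPM per kb), Calcrl (0.954, and 0.543 without the central library of mouse 5), Ramp1 (0.0178), Calcr (0.0148), Adm (0.0019) and Ramp3 (0). Ramp2 ranked 215 of 21280 genes with a known length. Outside the central library of mouse 5, the lowest Ramp2 value was 164 CPM per kb and the highest Calcrl value 2.20, so that these 2 levels did not overlap. The levels of Ramp1, Calcr, Adm and Ramp3 overlapped from library to library. The ratio of Ramp2 to Calcrl per kb was 1513 to 4919 in GFP+-RPE, 221 to 897 in peripheral GFP–-RPE and 0.187 to 756 in central GFP–-RPE. Calcrl, the divisor, was chosen for its low level in GFP+-RPE, so the higher ratio there is not a separate result. In the central library of mouse 5 alone the receptor stood above its partner.

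**Figure D3:**
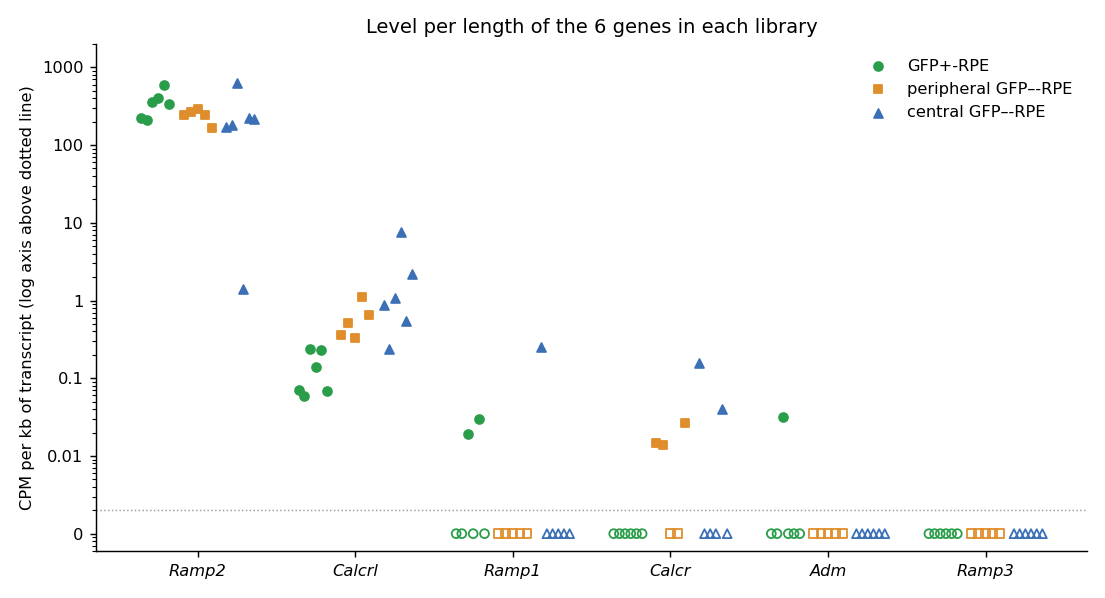
CPM per kb of transcript for the 6 genes in each library, on a log axis, with open symbols below the dotted line for libraries at 0 counts. Ramp2 lies above 164 CPM per kb in all libraries but the central one of mouse 5, Calcrl lies between 0.0583 and 7.53, and Ramp3 is at 0 throughout.

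The 6 genes lie on 5 chromosomes (GRCm38, GENCODE M21). Calcrl is on the minus strand at chr2:84330626-84425411 and Calcr on the minus strand at chr6:3685680-3764714. Ramp1 is at chr1:91179822-91225196, Ramp2 at chr11:101246028-101259546, Ramp3 at chr11:6658521-6677475 and Adm at chr7:110627661-110629820, all on the plus strand. The Ramp3 exons overlap Gm11978 on the other strand, and the exons of Calcrl, Calcr, Ramp1 and Adm overlap no other gene.

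The other peptides and receptors of the calcitonin family were as scarce as the ligand. Calca, which encodes calcitonin and a calcitonin gene-related peptide, had 1 count in all. Calcb, which encodes the other such peptide, had 0, and Adm2, for a second adrenomedullin, had 1. Iapp, the gene for amylin, had at most 4 counts in any library, and Gpr182, an orphan receptor once proposed for adrenomedullin, at most 2. The decoy receptor Ackr3, which takes up adrenomedullin and chemokines, was by contrast present in every library, at 66.1 ± 27.9 CPM in GFP+-RPE, 71.9 ± 15.5 in peripheral GFP–-RPE and 71.8 ± 36.0 in central GFP–-RPE (SD, n = 6, 5 and 6). Crcp, which encodes a receptor component that is also an RNA polymerase III subunit, varied from 0 to 1189 counts. Its means were 32.2 CPM in GFP+-RPE, 19.4 in peripheral GFP–-RPE and 5.63 in central GFP–-RPE, and no comparison of it passed the test (edgeR adjusted p from 0.977 to 1.00).

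Of 5 genes that process or clear such peptides, 3 could be tested and 0 were called in any comparison. Ide, the insulin-degrading enzyme, had means of 61.8, 38.1 and 68.9 CPM in GFP+-RPE, peripheral and central GFP–-RPE, and Pam, which amidates peptide hormones, had 12.2, 13.1 and 30.9 CPM. Among 13 other class B receptors, 11 stayed under 10 counts in every library. The exceptions were Vipr2, a receptor for vasoactive intestinal peptide, and Crhr2, a receptor for corticotropin-releasing hormone, which varied from 0 to 472 and from 0 to 249 counts, and Glp1r, the next highest, had at most 5.

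The genes of Gs and cyclic AMP signaling, downstream of the receptor, included some of the most abundant ones read here. Gnas, which encodes the Gs alpha subunit, was at 964 ± 191, 946 ± 71.5 and 928 ± 191 CPM in GFP+-RPE, peripheral and central GFP–-RPE (SD, n = 6, 5 and 6). Gnb1, a G protein beta subunit, had means of 260, 197 and 252 CPM. Prkar1a, a regulatory subunit of protein kinase A, had 270, 177 and 217 CPM, and its log2 fold change against the periphery was 0.64 (standard error 0.20, edgeR adjusted p = 0.610). Of 34 Gs and cyclic AMP genes 19 could be tested in that comparison, 9 of them higher and 10 lower in GFP+-RPE, and 0 were called.

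Genes that sort or switch off such receptors were measured as well, with 10 in the table and 0 called. Slc9a3r1, the scaffold NHERF1, had means of 359, 272 and 347 CPM in GFP+-RPE, peripheral and central GFP–-RPE. Nsf, a membrane fusion ATPase, had 12.6, 22.1 and 14.2 CPM. Gprasp1, which directs receptors to lysosomes, had 21.3, 32.0 and 67.5 CPM, with a log2 fold change of −1.78 against the center (standard error 0.61) that did not pass (edgeR adjusted p = 0.407). Among 16 hypoxia genes, fixed because hypoxia induces adrenomedullin, Slc2a1, the glucose transporter, had 721, 766 and 755 CPM and Vegfa, the endothelial growth factor, had 269, 358 and 336 CPM. Pgk1, a glycolytic kinase, had 370, 234 and 175 CPM (edgeR adjusted p = 0.610 against the periphery and 0.712 against the center). Epas1, the hypoxia-inducible factor HIF-2 alpha, named after its values were seen, had 148, 259 and 219 CPM (edgeR adjusted p = 0.708 and 0.859).

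In all, the 6 lists held 85 genes of the table. With GFP+-RPE against the center 40 were tested, 14 higher and 26 lower, with a median log2 fold change of −0.11 beside 0.00 over all genes. Against the periphery 45 were tested, 20 higher and 25 lower, with a median of −0.10 beside 0.01. Between the controls 46 were tested, 20 higher and 26 lower in the periphery, with a median of −0.04 beside 0.01. By edgeR 0 list genes were called in each comparison, beside 0.0431%, 0.0396% and 0% of all genes tested. By DESeq2 0 were called as well, beside 206 of 12106, 66 of 14935 and 29 of 11232 genes. In edgeR 2, 3 and 0 list genes had an unadjusted p under 0.05 in these comparisons. These were 5%, 6.67% and 0% of the list genes tested, beside 5.80%, 5.58% and 2.70% of all genes tested.

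**Figure D4:**
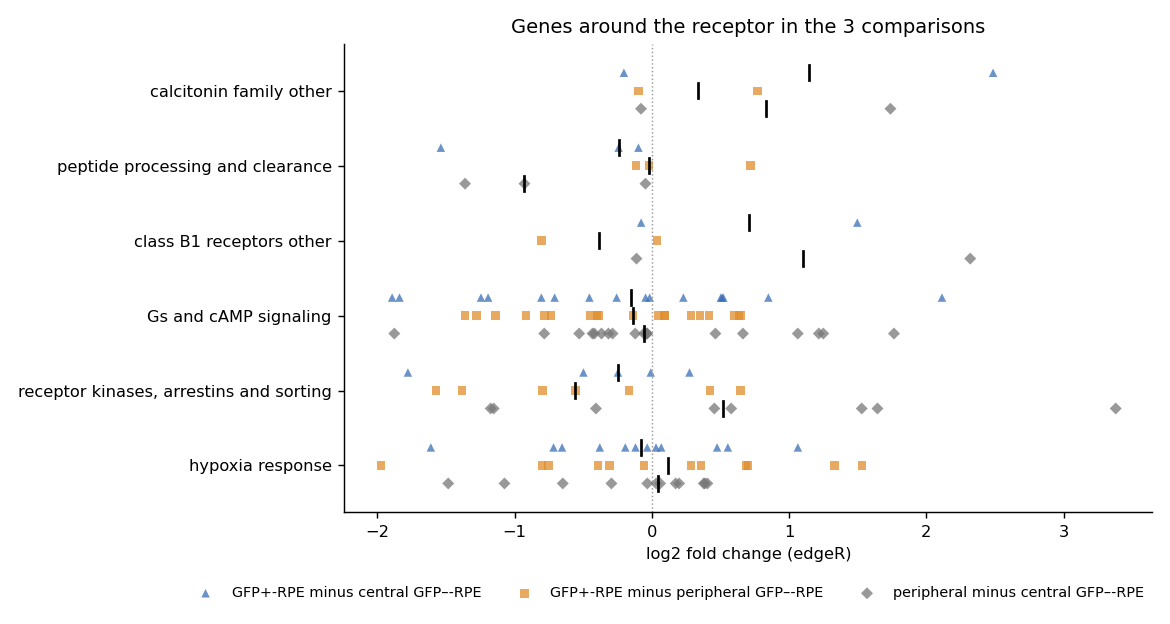
Log2 fold changes (edgeR) of the tested genes of 6 lists, 1 point per gene, for the 3 comparisons, with black bars at the median of each list. The points lie on both sides of 0, and 0 genes passed the limits for a call.

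Because Calcrl and Ramp2 are best known from endothelium, 20 endothelial markers were read in the same libraries. Of these, 11 never exceeded 3 counts, among them Cdh5 and Tek, which encode VE-cadherin and the angiopoietin receptor. Pecam1 had 52 counts in the GFP+-RPE library of mouse 3 and at most 2 elsewhere. Kdr, a receptor for vascular endothelial growth factor, had 63 to 138 counts in GFP+-RPE of mice 2, 3 and 4 and at most 5 elsewhere. S1pr1, a sphingosine phosphate receptor, was at 0 in all GFP+-RPE libraries and reached 510 counts in the periphery and 297 in the center. The summed level of the list was 8.02 to 27.2 CPM in GFP+-RPE, 2.14 to 76.5 in peripheral GFP–-RPE and 9.59 to 35.1 in central GFP–-RPE. In the central library of mouse 5, where Calcrl was highest, Pecam1, Cdh5 and Kdr were at 0, Tek had 1 count and S1pr1 76. These are 5 of the 20 markers, and the whole list summed to at least 9.59 CPM in every central library.

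The list of choroid stroma and fibroblast genes was lower in GFP+-RPE, a description without a test. Of its 10 genes, 8 stayed under 10 counts in every library, and 4 never exceeded 3 counts, Col1a2, Pdgfra, Mfap4 and Dpt. The summed level of the list was 0.0475 to 0.578 CPM in GFP+-RPE, 2.07 to 9.90 in peripheral GFP–-RPE and 1.05 to 37.7 in central GFP–-RPE. All GFP+-RPE libraries lay below all controls, with medians of 0.346, 4.45 and 4.08 CPM. The GFP+-RPE sums were near the floor that 3 counts of 1 gene make (0.116 to 0.554 CPM). How often sums of so few counts separate in this way was not examined. The medians of the endothelium list were 15.1, 17.4 and 17.6 CPM in the same order, and those of 14 photoreceptor genes 129, 159 and 217 CPM, the latter with overlapping ranges. The highest stroma gene was Col5a2, a fibrillar collagen, with 37.1 CPM in the central library of mouse 4, whereas Calcrl was highest in that of mouse 5. The part of such RNA in the Calcrl difference was not tested.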

How the data were processed

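RNA-seq was analysed in 17 libraries of hand-picked RPE cells, grouped by the sample labels. The authors deposited 1 table of whole numbers per gene symbol without normalization, taken here as estimated counts rounded by the authors, since the submitters' processing notes name Salmon, fastp and GRCm38.p6. Their versions, the annotation, the summing over transcripts and the use of strand are not given in the sources used here. All 17 columns were matched to samples by name, and 0 were left unused.

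CPM values used TMM scaling over all libraries, and levels between genes were compared per kb of the longest coding transcript (GENCODE M21). Each comparison used edgeR (version 4.0.16, R version 4.3.3) with TMM, its default filter on low counts and the quasi-likelihood test, on the 2 groups compared. Standard errors beside edgeR fold changes are not an edgeR output. They were derived here from the fold change and the F statistic of that test. A call needed a p under 0.01 after Benjamini-Hochberg adjustment, together with a log2 fold change over 1 in absolute value. The study's methods name DESeq2 without settings, and DESeq2 (version 1.42.0) was an alternative. For single genes, log2(CPM + 1) was compared with exact permutation tests, two-sided (scipy, version 1.17.1). The code was checked on simulated counts with large changes and less spread between libraries than these data. That check does not measure power or error rates here.

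The 6 members, the 6 pathway lists and 9 cell type lists were chosen with earlier results of these data known. Named genes were all members, every gene of the calcitonin family list, the 3 highest of each other pathway list and any called gene of these lists, the highest gene of each cell type list with Pecam1, Cdh5, Kdr, Tek and S1pr1, the 10 genes most like Calcrl, and Serpine3. Genes named after their values were seen are marked as such. The values of 1 gene under this rule are not reported here. Other settings were the tool, the scaling, the filter, all 3 groups in 1 fit, the mouse as a block, the run of animal numbers, the limit for calls, the pseudocount (0.1 and 10) and each library left out. After the data were seen, the values without the central library of mouse 5, the mitochondrial share and the olfactory receptor sum were added.

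The mouse numbers stand for animal numbers in the labels, so that equal numbers pair the samples. Their deviations from the group means had a correlation of −0.02 to 0.0944 over 5 pairs in each comparison, 0 of them over 0.1. With the mouse as a replicate block, 56 genes were called between GFP+-RPE and central GFP–-RPE in place of 4, and 0 between GFP+-RPE and peripheral GFP–-RPE in place of 4. Over 136 pairs of libraries the highest correlation of log2(count + 1) was 0.924.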

Additional observations from a re-analysis of the deposited data

Results flagged for a closer look

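In 8 groups of member values checked for a single distant library, 4 had one, all of them among the 6 libraries of central GFP–-RPE. Chance gives about 1 in 20 for continuous values, a rate that does not hold for genes near 0 such as Calcr and Ramp1, where any single library with counts stands apart, and Calcrl was chosen on these libraries. Calcrl was at 36.8 CPM in the library of mouse 5, with the next highest at 10.8 CPM. Ramp2 was at 738 CPM in the library of mouse 4, far above the 264 CPM of the next. Calcr and Ramp1 were each at 0.589 CPM, or 7 counts, in the library of mouse 1, where the next highest were 0.150 CPM and 0. The checks are not independent, since they read the same 6 libraries.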

How the results depend on the processing

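For Ramp2 and the lists no call was gained or lost under any alternative: 0 members other than Calcrl and 0 list genes were called under every setting run for them. Over all genes tested, edgeR called 0.0431%, 0.0396% and 0% in the 3 comparisons. Among so few genes, 0 calls is near that share and says little about stability. The number of genes called over the whole table was less stable. Between GFP+-RPE and central GFP–-RPE, 4 genes were called by edgeR, 206 by DESeq2, 56 with the replicate block, 2 with a filter of 10 counts in 5 libraries, 1 with the animal-number run as covariate, 8 at an adjusted p under 0.05, and 1 to 3 with a library left out. Between GFP+-RPE and peripheral GFP–-RPE, 4 were called by edgeR, 66 by DESeq2, 0 with the replicate block, 0 with all 3 groups in 1 fit, 1 with the run covariate, and 0 to 5 with a library left out. Between the controls 0 were called by edgeR (257 at an unadjusted p under 0.05) and 29 by DESeq2. The block changed no other call. The cause of these shifts was not tested.

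The log2 ratio of mean Calcrl CPM, GFP+-RPE over central GFP–-RPE, was −3.95, and −2.19 within mice 1 to 3. It stayed negative under the 16 alternatives, from −4.28 to −2.19, and with a library left out it was −4.19 to −2.88, the latter without the central library of mouse 5. The Ramp2 log2 fold change between the controls, 0.01, turned negative when 1 of 6 libraries was left out (peripheral mouse 2 or 4, central mouse 1, 2, 5 or 6) and ranged from −0.21 (without central mouse 5) to 0.57 (without central mouse 4). Of the 10 genes most like Calcrl, 5 stayed among the 10 with a pseudocount of 0.1, 6 with 10, and 7 with Spearman's correlation or without the library of highest Calcrl. Low counts limit what can be said of Calcr, Ramp1, Ramp3 and Adm, which lay at or under 3 counts in nearly all libraries.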

Other observations

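Other cell types were read from marker lists in the same libraries. Of 12 macrophage and microglia genes 8 never exceeded 3 counts, C1qa, C1qb, C1qc and Aif1 among them, while Csf1r reached 146 CPM, and the summed level was 49.2 to 120.0 CPM in GFP+-RPE, 105 to 147 in peripheral GFP–-RPE and 68.4 to 116 in central GFP–-RPE. Of 12 pericyte and smooth muscle genes 4 never exceeded 3 counts. Acta2, smooth muscle actin, reached 538 CPM in the GFP+-RPE library of mouse 1, and the sum was 169 to 567, 149 to 247 and 117 to 326 CPM in GFP+-RPE, peripheral and central GFP–-RPE.

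Photoreceptor genes summed to 88.0 to 166, 108 to 174 and 122 to 304 CPM in GFP+-RPE, peripheral and central GFP–-RPE, with Rom1, a disc rim protein, highest at 213 CPM in the central library of mouse 2. Melanocyte genes summed to 110 to 213, 87.2 to 203 and 93.7 to 395 CPM, led by Gpr143, which the RPE also uses. Genes of the ciliary and iris epithelium summed to 57.3 to 156, 51.0 to 136 and 51.8 to 161 CPM, led by Mitf, which is also on the RPE list. The Mueller glia list stood at 11679 to 18304, 7918 to 18712 and 8887 to 16689 CPM, led by clusterin (Clu), which the RPE makes too. The RPE list itself summed to 72498 to 85651, 58954 to 92323 and 51455 to 102228 CPM, with Ttr, transthyretin, at up to 42373 CPM.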
